A study of Homo sapiens with 8 samples.

Results

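The genes described here carry the names of the classical splicing regulators of human cells, the SR proteins and the heterogeneous nuclear ribonucleoproteins (hnRNPs). They were taken as every row of the deposited gene table whose symbol begins with SRSF and a digit or with HNRNP, symbols with a hyphen left out, which gave 36 genes of 18216. HNRNPA1P33 and HNRNPA3P1 among them are annotated as processed pseudogenes and stay in the counts of splicing genes below. The rule itself reads symbols and no measured value. The cells were IMR90, a line of human lung fibroblasts, at passage 28, kept in 3% oxygen and given either Nutlin-3a at 3 µg/mL for 6, 9 or 12 h or DMSO, with 2 polyA RNA libraries in each of the 4 groups. Nutlin-3a occupies the p53 pocket of MDM2 and so stabilizes p53. The labels say neither how long DMSO was applied nor whether replicates were separate cultures, and the p-values below therefore measure the spread between these libraries, which may be technical. All times share 1 DMSO group, and exposure cannot be told apart from time in culture.

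SR proteins carry RNA-binding domains and a tail of alternating serine and arginine, and many of them bind exonic enhancers and recruit the U1 and U2 particles to nearby splice sites. HnRNPs coat nascent transcripts, often repress the use of exons, and several also act in RNA export, stability and translation. Many genes of both families regulate themselves through an alternative exon with a stop codon, which sends the transcript to nonsense-mediated decay.

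Gene reads ranged from 21.9 to 33.6 M (1e6) per library. CDKN1A, the p53 target that encodes p21, was higher under Nutlin-3a by 3.47 ± 0.04, 3.85 ± 0.04 and 3.90 ± 0.04 on the log2 scale at 6, 9 and 12 h. All 11 fibroblast markers examined were in the table. The summed normalized count of the fibroblast markers was 1276162 to 1306023 in DMSO, 1235546 to 1251839 at 6 h, 1463408 to 1471104 at 9 h, and 1509024 to 1540864 at 12 h. Of 8 epithelial, 7 endothelial and 7 immune markers, 4, 6 and 5 were in the table. Their defining members CDH1, CDH5 and PTPRC had at most 3.75, 6.55 and 5.77 in any library. The epithelial sum was 413 to 449 in DMSO, 436 to 463 at 6 h, 453 to 507 at 9 h and 509 to 516 at 12 h, mostly CLDN4. The endothelial sum, nearly all TEK, was 2018 to 2135 in DMSO, 1919 to 2031 at 6 h, 1643 to 1745 at 9 h and 1483 to 1562 at 12 h. The immune sum, nearly all CD68, was 748 to 905 in DMSO, 762 to 872 at 6 h, 933 to 993 at 9 h and 913 to 964 at 12 h. CLDN4 rose and TEK fell at 9 and 12 h, and CD68 rose at 9 h. The part of these sums in the results below was not tested. Over 32 of the splicing genes the log2 difference within a pair had an SD of 0.0882, 0.0670 and 0.0706 at 6, 9 and 12 h of Nutlin-3a, against 0.128 in DMSO, the widest pair.

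Normalized counts below are gene reads divided by the size factor of the library. Log2 changes are differences of log2(normalized count + 1) and stand with their standard error. A gene is said to have risen or fallen where the limma test across all 14074 genes tested gave a Benjamini-Hochberg adjusted p under 0.05. A lower normalized count is a smaller share of the counted RNA, and a loss of RNA per cell and a change in the number of cells that express a gene cannot be told apart in such samples.

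Of the 36 genes, 34 passed the filter on low values. HNRNPCL2, an intronless relative of HNRNPC, did not pass, with at most 5.77 normalized counts in a library. HNRNPH2 did not pass either, with 0 in both DMSO libraries and 0.818 to 5.77 under Nutlin-3a, which is at most 6 reads. In GENCODE release 29 its exons overlap those of the read-through gene RPL36A-HNRNPH2 on the same strand. Of the genes tested, HNRNPA3P1, a processed pseudogene, passed through 1 library at 6 h and 1 at 9 h, and SRSF12 had 14.7 to 24.7. Neither passed a test against DMSO at any time.

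Per kilobase of the median coding transcript in GENCODE release 29, the most abundant of the genes in DMSO were HNRNPA2B1 (8354 and 9039 normalized counts per kb) and SRSF1 (7893 and 8521), with HNRNPK (6830 and 6691) next. This order depends on the length used. The median coding transcripts of HNRNPA2B1, SRSF1, HNRNPK and HNRNPAB have 3.518, 1.415, 2.79 and 1.674 kb. Their merged exons span 9267, 3340, 5114 and 2144 bases, and no ranking by merged exons was made. The SR genes below SRSF1 were SRSF3 (3290 and 3723), SRSF2 (2857 and 3058) and SRSF7 (1751 and 1853). HNRNPA2B1 lay above SRSF1 within each library, but their ranges overlapped, whereas SRSF7 lay below SRSF2 in both. HNRNPA1, usually counted among the most abundant hnRNPs, stood at 326 and 334 per kb. It has 75 named pseudogenes in GENCODE, and 20.0 to 21.0% of each library's total was an entry for reads that aligned in several places, so the level and the changes of HNRNPA1, HNRNPA1L2 and the pseudogene HNRNPA1P33 are uncertain. HNRNPA3, HNRNPC, HNRNPK and HNRNPDL have 16, 9, 5 and 4 named pseudogenes. Exons of HNRNPA2B1, HNRNPUL1, HNRNPU and SRSF2, among others, overlap genes on the opposite strand, and the strand setting is not given. How far copies and overlaps moved these counts was not tested.

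**Figure D1:**
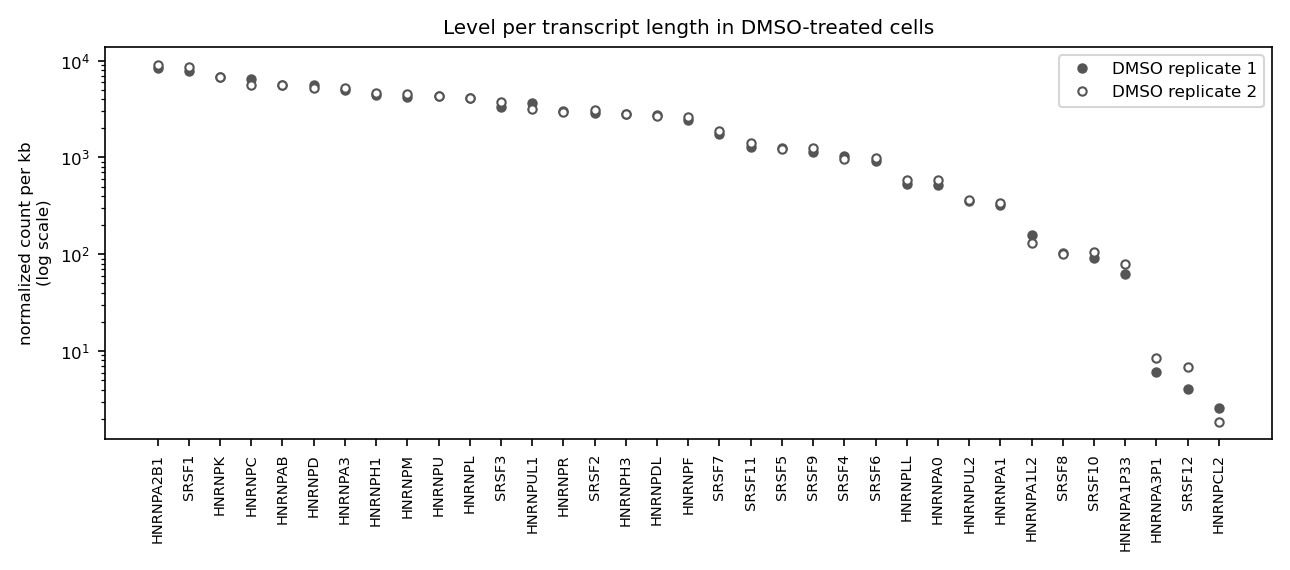
Normalized count per kb of median coding transcript for 35 of the genes in the 2 DMSO libraries, on a log axis, ordered by mean. HNRNPA2B1, SRSF1 and HNRNPK stand at the top, while HNRNPA3P1, SRSF12 and HNRNPCL2 lie below 10. HNRNPH2, at 0 in both libraries, is not drawn.

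Most of these genes fell under Nutlin-3a, and the number that fell was higher at each later time. At 6 h 19 of the 34 fell and 3 rose, at 9 h 22 fell and 1 rose, and at 12 h 24 fell and 2 rose. Over all genes tested, 36.7, 35.3 and 39.9% were called in either direction. By direction, 20.6, 19.1 and 21.4% of all genes fell and 16.1, 16.2 and 18.5% rose, while of the splicing genes 55.9, 64.7 and 70.6% fell. Quantile scaling gave 3369 genes that rose and 2482 that fell at 12 h, against 2603 and 3007 in the main analysis, with 2 and 23 splicing genes. The changes were moderate, with medians of −0.18, −0.22 and −0.28 against −0.01, 0.01 and 0.01 over all genes, and none of the genes that fell reached a halving. Among the splicing genes with a mean of at least 1000, a limit set after the values were seen, 18, 20 and 22 of 27 fell, against 24.4, 23.9 and 26.7% of all genes above it. The genes together made up 0.636 and 0.662% of gene reads at 12 h, against 0.826 and 0.846% in DMSO.

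**Figure D2:**
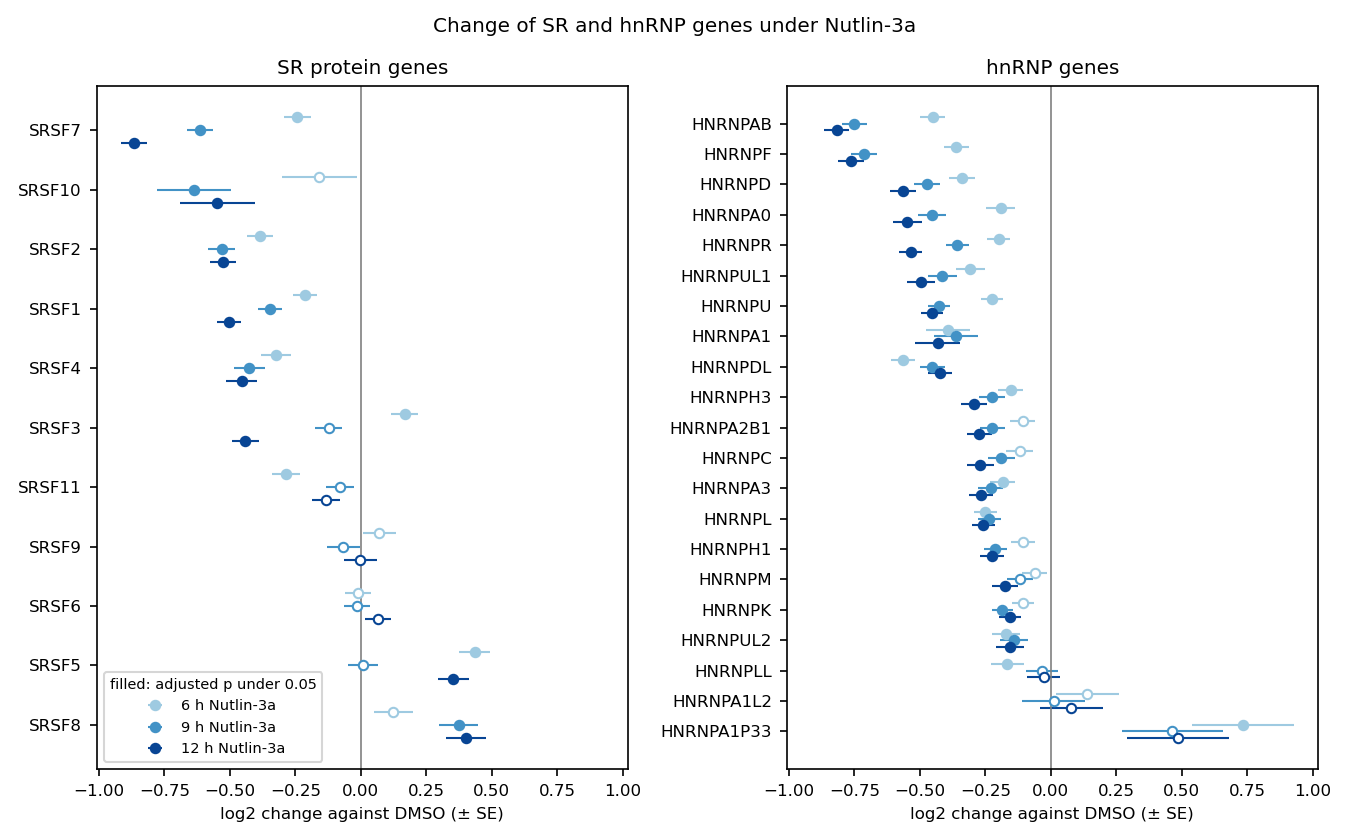
Log2 change against DMSO at 6, 9 and 12 h of Nutlin-3a for the 32 genes with a mean of at least 50, SR genes left and hnRNP genes right. Points are estimates with their standard error, and filled points had an adjusted p under 0.05. SRSF7, HNRNPAB and HNRNPF lie lowest at 12 h, while HNRNPA1P33 (not called there), SRSF8 and SRSF5 lie highest.

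Among the 12 SR genes, 5, 5 and 6 (41.7, 41.7 and 50%) fell at 6, 9 and 12 h, beside 20.6, 19.1 and 21.4% of all genes. The 2, 1 and 2 that rose (16.7, 8.33 and 16.7%) stood beside 16.1, 16.2 and 18.5% of all genes. SRSF7, a zinc-knuckle SR protein that also serves in RNA export, showed the largest fall of all the SR and hnRNP genes at 12 h. Its normalized counts were 4296 and 4544 in DMSO, 3679 and 3794 at 6 h, 2831 and 2937 at 9 h, and 2392 and 2452 at 12 h. Each Nutlin-3a pair lay below the DMSO pair and below the pair of the time before. The log2 change was −0.24 ± 0.05, −0.62 ± 0.05 and −0.87 ± 0.05 (0.548-fold at 12 h, adjusted p = 1.03e-11 by limma).

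SRSF1, the first SR protein described as a general splicing factor, had 11168 and 12057 in DMSO, 9908 and 10098 at 6 h, 9058 and 9165 at 9 h, and 8140.2 and 8219.6 at 12 h. These groups did not overlap, and the log2 change was −0.21, −0.35 and −0.50 (each ± 0.05). SRSF1 shares 56.59% of its exon bases in GENCODE with the gene AC015813.2 on the same strand, and how reads there were counted is not given. SRSF2, which binds exonic enhancers and acts with the elongating polymerase, had 5505 and 5893 in DMSO, 4355 and 4369 at 6 h, 3866 and 4015 at 9 h, and 3826 and 4092 at 12 h. Its fall of −0.38 ± 0.05 at 6 h reached −0.53 ± 0.05 at 9 h and stayed there at 12 h (−0.53 ± 0.05). SRSF4 had 1649 and 1806 at 12 h against 2456 and 2281 in DMSO and fell at each time (−0.32, −0.43 and −0.46, each ± 0.06). SRSF10, a regulator that represses splicing when dephosphorylated, had 109.7 and 108 at 12 h against 149 and 172 in DMSO and fell at 9 and 12 h (−0.64 ± 0.14 and −0.55 ± 0.14).

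SRSF3, a small SR protein that binds pyrimidine-rich sites and promotes RNA export, moved in both directions. It had 8374 and 9477 in DMSO, 9910.1 and 10107 at 6 h, 8159 and 8205 at 9 h, and 6466 and 6663 at 12 h. The 6 h pair lay above the DMSO pair and the 12 h pair below it. The rise at 6 h was small (0.17 ± 0.05, adjusted p = 0.0147) and was not called when DMSO replicate 1 was left out (0.08, adjusted p = 0.174), nor without 6 h replicate 1 (0.18, 0.0565) or 2 (0.15, 0.102), without an intensity trend (0.127) or with only 2 groups fitted (0.0633). Without DMSO replicate 2 it was 0.26. The fall at 12 h (−0.44 ± 0.05) and the difference between 12 and 6 h (−0.61 ± 0.05, adjusted p = 1.3e-08) were called under each of the alternatives run.

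SRSF5, whose rat transcript was first found as one induced by insulin, was higher at 6 and 12 h but not at 9 h. It had 1779.9 and 1729.6 in DMSO, 2409 and 2334 at 6 h, 1689.8 and 1839.8 at 9 h, and 2153 and 2333 at 12 h. The 9 h libraries overlapped those of DMSO, while the 6 and 12 h libraries lay above both. The log2 change was 0.43 ± 0.06, 0.01 ± 0.06 and 0.35 ± 0.06. The steps from 6 to 9 h (−0.43 ± 0.06, adjusted p = 2.03e-05) and from 9 to 12 h (0.35 ± 0.06, adjusted p = 0.000657) were tested after the values had been seen. The later step lost its call without 9 h replicate 1 (0.28, adjusted p = 0.0504) or 12 h replicate 2 (0.29, 0.0551), and without an intensity trend (0.0995).

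SRSF8, which arose as an intronless copy of SRSF2, had 417 and 408 in DMSO, 447 and 454 at 6 h, 542 and 528 at 9 h, and 532 and 559.8 at 12 h. All Nutlin-3a libraries lay above DMSO, and the rise was called at 9 and 12 h (0.37 ± 0.08 and 0.40 ± 0.08). SRSF11 fell at 6 h only by the test (−0.28 ± 0.05), with −0.08 ± 0.05 and −0.13 ± 0.05 later, and it rose between 6 and 12 h (0.15 ± 0.05, adjusted p = 0.0344), a call lost under 8 of 20 alternatives, each 6 h and 12 h library left out among them (0.12 to 0.18). SRSF6 and SRSF9 were called at no time. Their changes at 12 h had nominal 95% intervals of −0.04 to 0.17 and −0.13 to 0.13, which leaves out changes of the size seen for SRSF1 or SRSF7.

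**Figure D3:**
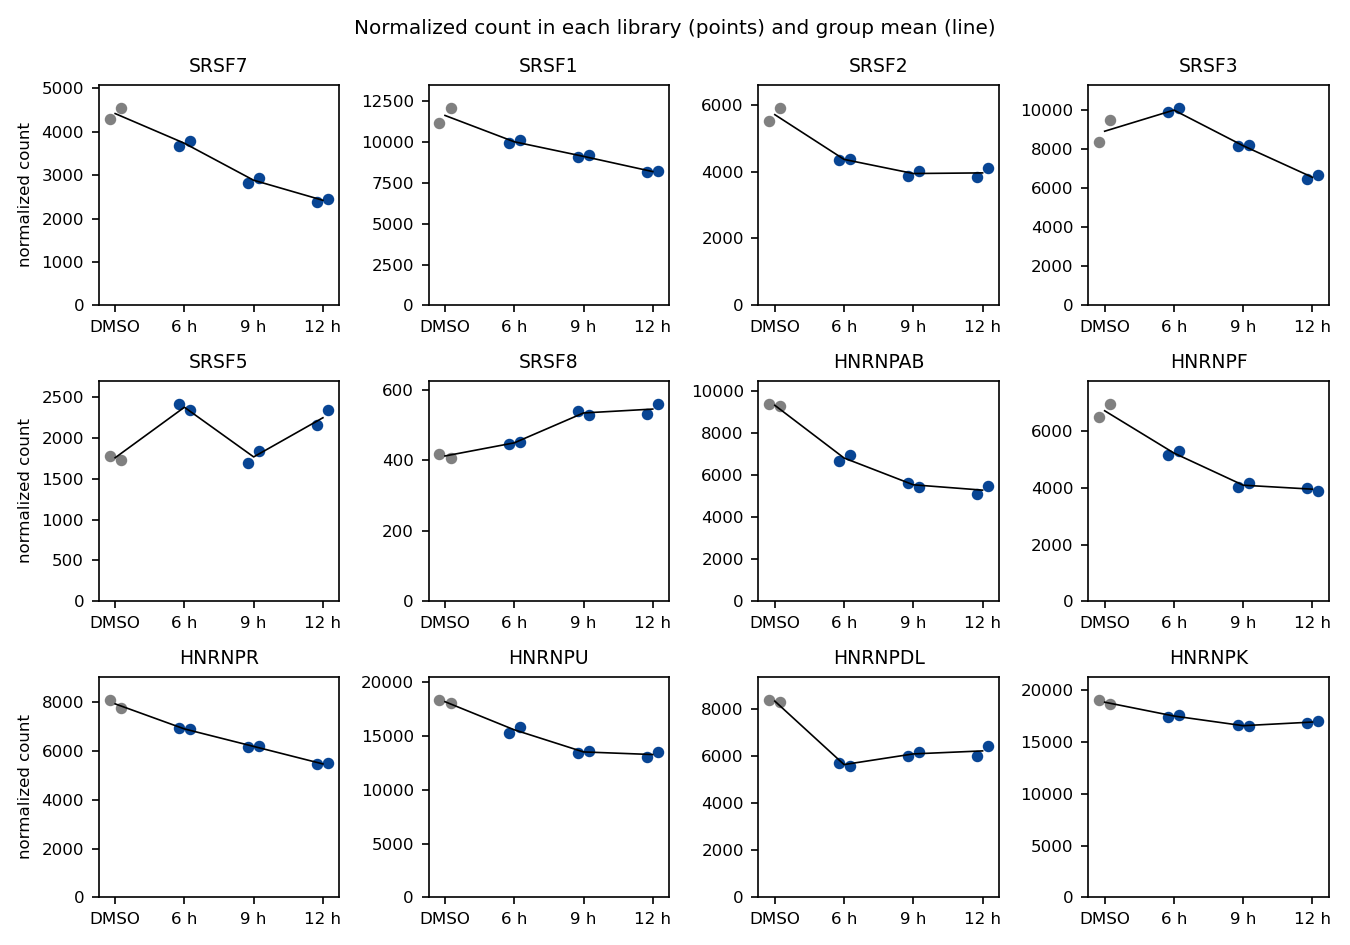
Normalized count of 12 of the genes in each library (points) with the group means joined by a line, for DMSO and 6, 9 and 12 h of Nutlin-3a, each axis starting at 0. SRSF7 and HNRNPR step down at each time, HNRNPDL is lowest at 6 h, SRSF3 is highest at 6 h, and SRSF5 is high at 6 and 12 h.

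The hnRNP A/B and D proteins bind AU-rich or UAG-containing RNA through paired RNA recognition motifs. Of the 8 listed genes, 6, 7 and 7 fell and 0 rose at 6, 9 and 12 h. Over all genes 20.6, 19.1 and 21.4% fell and 16.1, 16.2 and 18.5% rose. HNRNPAB, also described as a partner of the RNA editing enzyme APOBEC-1, had 9376 and 9268 in DMSO, 6654 and 6980.1 at 6 h, 5639 and 5448 at 9 h, and 5101 and 5479 at 12 h. All Nutlin-3a libraries lay below both DMSO libraries, and the log2 change was −0.45 ± 0.05, −0.75 ± 0.05 and −0.82 ± 0.05 (adjusted p = 1.47e-11 at 12 h by limma). HNRNPD, which encodes the mRNA decay factor AUF1, had 9358 and 8702 in DMSO, 6916 and 7350.0 at 6 h, 6444 and 6564 at 9 h, and 5907 and 6294 at 12 h. It fell, with log2 changes of −0.34, −0.47 and −0.57 (each ± 0.05).

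HNRNPDL, the closest relative of HNRNPD among these genes, had another time course. Its counts were 8397 and 8316 in DMSO, 5714 and 5596 at 6 h, 6013 and 6206 at 9 h, and 6036 and 6438 at 12 h. The 6 h libraries were the lowest, and the fall there (−0.56 ± 0.05) was the largest of any of these genes at that time. It was 0.14 ± 0.05 higher at 12 h than at 6 h (adjusted p = 0.0251), a call that was lost without 6 h replicate 1 (0.16, 0.0731) or 2 (0.13, 0.143) or 12 h replicate 2 (0.09, 0.3) and without an intensity trend (0.109). HNRNPA0, which binds AU-rich elements of cytokine and cell-cycle transcripts, had 4497 and 5089 in DMSO, 4106 and 4270.3 at 6 h, 3478 and 3504 at 9 h, and 3261 and 3284 at 12 h. Its log2 change was −0.19 ± 0.05, −0.45 ± 0.05 and −0.55 ± 0.05, but at 6 h the call did not hold when DMSO replicate 2 (−0.10, adjusted p = 0.089) or 6 h replicate 1 (−0.16, 0.0984) was left out, or without an intensity trend (0.0926).

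HNRNPA2B1, which reads m6A-marked and G-rich RNA, had 24461 and 26163 at 12 h against 29389.9 and 31799 in DMSO and fell at 9 and 12 h (−0.22 ± 0.05 and −0.27 ± 0.05). HNRNPA3, its close relative, had 8454 and 9018 at 12 h against 10233 and 10786 in DMSO and fell at each time (−0.18, −0.23 and −0.27, each ± 0.05), the 6 h call being lost when 6 h replicate 1 was left out (−0.16, 0.0561) and without an intensity trend (0.0639). The counts assigned to HNRNPA1 fell too (−0.43 ± 0.08 at 12 h), with the limit on its counting given above. The retrocopy HNRNPA1L2 was called at no time, with 195 to 225 at 12 h against 179 and 219 in DMSO. HNRNPA1P33 had 70.0 and 62.5 at 6 h against 35.2 and 44.0 in DMSO and rose there (0.73 ± 0.19, adjusted p = 0.0053), a call that DESeq2 (0.0607) and the authors' deposited table (0.0679) did not make, and that was lost without DMSO replicate 1 (0.58, 0.0546) or 6 h replicate 1 (0.65, 0.0562).

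The hnRNP F/H proteins bind G-tracts through a distinct type of RNA recognition motif. Of the 3 tested genes, 2, 3 and 3 fell at 6, 9 and 12 h, beside 20.6, 19.1 and 21.4% of all genes. HNRNPF had 6471 and 6936 in DMSO, 5133 and 5300.4 at 6 h, 4026 and 4147 at 9 h, and 3996 and 3898 at 12 h. Most of its fall was in place by 9 h, with log2 changes of −0.36 ± 0.05, −0.71 ± 0.05 and −0.76 ± 0.05. HNRNPH1 and HNRNPH3 changed less. HNRNPH1 had 8345 and 8689 at 12 h against 9684 and 10210.1 in DMSO (−0.22 ± 0.04), and HNRNPH3 had 4083 and 4343 against 5117 and 5204 (−0.29 ± 0.05).

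HNRNPU, a nuclear matrix protein that binds both chromatin and RNA, had 18329 and 18045 in DMSO, 15279.8 and 15873 at 6 h, 13449.8 and 13590.5 at 9 h, and 13075 and 13478 at 12 h. It fell, with log2 changes of −0.22, −0.43 and −0.45 (each ± 0.04), and its relative HNRNPUL1, a factor in the response to DNA breaks, had −0.31, −0.41 and −0.50 (each ± 0.05). HNRNPUL1 had 6956 and 6939.6 at 12 h against 10515 and 9134 in DMSO. HNRNPUL2 was lower in each Nutlin-3a library (1684 and 1713 at 12 h against 1875 and 1907 in DMSO), but its calls at 6, 9 and 12 h (−0.17, −0.14 and −0.15, each ± 0.05) were lost under 4, 16 and 9 of 21 alternatives. At 12 h these included leaving out 12 h replicate 1 (−0.14, 0.144) or 2 (−0.17, 0.0891), and TMM (−0.13) and quantile scaling (−0.09), edgeR (−0.13), DESeq2 and the authors' deposited table (−0.15 each). It shares 44.15% of its exon bases in GENCODE with the read-through gene HNRNPUL2-BSCL2 on the same strand.

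HNRNPR, which binds RNA in neurons and other cells and helps to transport it, had 8073 and 7771 in DMSO, 6914 and 6878 at 6 h, 6159 and 6204 at 9 h, and 5443 and 5484 at 12 h. It stepped down at each time without overlap, to −0.54 ± 0.04 at 12 h. HNRNPL, which binds CA repeats, reached its lower level by 6 h (−0.25, −0.24 and −0.26, each ± 0.04), with 6899 and 7093 at 12 h against 8349 and 8388 in DMSO. HNRNPC, which guards against the use of Alu-derived exons, had 7985 and 8028 at 12 h against 10304 and 9034 in DMSO (−0.27 ± 0.05). Its 12 h value was −0.17 without DMSO replicate 1, and its 9 h call (−0.19 ± 0.05) was lost without that library (−0.09, adjusted p = 0.087) or without 9 h replicate 1 (−0.19, 0.0535) or 2 (−0.19, 0.0585), and without an intensity trend (0.102). Without DMSO replicate 2 the 9 h value was −0.28. HNRNPK, which binds C-rich RNA and is also known as a partner of p53 in transcription, fell slightly at 9 and 12 h. Its change at 9 h was −0.18 ± 0.04, called under all 21 alternatives. It had 16844 and 17039.5 at 12 h against 19057 and 18668 in DMSO. The 12 h call (−0.15 ± 0.04) was lost without 12 h replicate 1, where the value was −0.15.

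HNRNPM, a regulator of epithelial and mesenchymal splicing, had 9365 and 9905 at 12 h against 10401 and 11368 in DMSO and was called at 12 h only (−0.17 ± 0.05), a call lost without 12 h replicate 1 (−0.13, adjusted p = 0.125) and without an intensity trend (0.0842). Without DMSO replicate 2 it was −0.11. HNRNPLL, which controls CD45 splicing in lymphocytes, had 1418 and 1342 at 6 h against 1461 and 1640.5 in DMSO. Its call at 6 h (−0.17 ± 0.06, adjusted p = 0.042) was lost under 15 of 21 alternatives, and its value was −0.08 without DMSO replicate 2 and −0.25 without DMSO replicate 1. At 12 h it stood at −0.03 ± 0.06.

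At 12 h of exposure 15 of the 34 genes were lower than at 6 h and 3 were higher by the test, as were 17.1 and 14.4% of all genes (31.5% in either direction). The largest differences were those of SRSF7 (−0.63 ± 0.05), SRSF3 (−0.61 ± 0.05), HNRNPF (−0.40 ± 0.05), SRSF10 (−0.39 ± 0.14), HNRNPAB (−0.37 ± 0.05), HNRNPA0 (−0.36 ± 0.05) and HNRNPR (−0.34 ± 0.04). The call of SRSF10 was lost under 8 of 20 alternatives (−0.25 without 6 h replicate 1, adjusted p = 0.338). The other 6, with SRSF1 and HNRNPU, were the 8 of 18 calls that held under all 20. SRSF3 had risen at 6 h, and SRSF10, HNRNPC and HNRNPA2B1 had not been called there. The genes that were higher at 12 h were SRSF8 (0.28 ± 0.08, lost without 12 h replicate 2 at 0.24 or 6 h replicate 1 at 0.27), SRSF11 and HNRNPDL. The number called was 10 without 12 h replicate 1, 11 without 6 h replicate 2 and 9 without an intensity trend. Fewer of all genes were called in these 3 settings too. Without an intensity trend 1782 of all genes were lower and 1429 higher, against 2400 and 2031 in the main analysis. HNRNPL (−0.01 ± 0.04), HNRNPA1 (−0.04 ± 0.08) and HNRNPUL2 (0.02 ± 0.05) had already fallen at 6 h and were not called between these times.

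The comparisons of neighbouring times were added after the values were seen. At 9 h 11 of the genes were lower and 2 higher than at 6 h, as were 9.9 and 8.52% of all genes (18.4% in either direction). At 12 h 3, SRSF3, SRSF7 and HNRNPR, were lower and 1, SRSF5, was higher than at 9 h, as were 2.92 and 1.08% of all genes (4% in either direction). These counts were unstable, and 4 of 13 and 0 of 4 calls held under all 20 alternatives. Between 6 and 9 h, 7 were lower and 1 higher without 6 h replicate 1, 8 and 0 without 6 h replicate 2, 8 and 1 without 9 h replicate 1, and 7 and 0 without 9 h replicate 2, while leaving out either DMSO library gave 16 and 4. Between 9 and 12 h, leaving out any single 9 or 12 h library gave 1 or 2 lower and 0 or 1 higher. Without an intensity trend 4 were lower and 1 higher in the earlier comparison, and 0 and 0 in the later. Of all genes, 740 were lower and 597 higher in the earlier comparison without that trend, against 1393 and 1199 in the main analysis. In the later comparison 144 and 30 were, against 411 and 152. Under each of the settings named here, the number of all genes called moved in the same direction as that of these genes.

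The families share features that their names did not select. Of the 32 tested genes annotated as protein coding in GENCODE release 29, 25 (78.1%) have at least 1 transcript annotated as a target of nonsense-mediated decay, against 42.4% of 12765 protein-coding genes tested. SRSF7 has 6 such transcripts of 12 and HNRNPU 9 of 31, while HNRNPAB and HNRNPF have 0. Gene counts add coding and decay-targeted transcripts together, so the values above do not tell which of them changed. How the number of annotated transcripts relates to expression was not tested.

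Promoter sequences are shown for the 3 genes with the largest fall at 12 h and for HNRNPDL, with the largest at 6 h. Each is the 250 bases before the most upstream RefSeq start in the promoter set used here (build GRCh38.p14), on the strand of the gene. CCAAT boxes (CCAAT, or ATTGG for the other strand) and E-boxes (CACGTG) are in capitals. The positions are chr2:38751495-38751744 on the minus strand for SRSF7, chr5:178204283-178204532 on the plus strand for HNRNPAB, chr10:43408858-43409107 on the minus strand for HNRNPF, and chr4:82430463-82430712 on the minus strand for HNRNPDL.
SRSF7: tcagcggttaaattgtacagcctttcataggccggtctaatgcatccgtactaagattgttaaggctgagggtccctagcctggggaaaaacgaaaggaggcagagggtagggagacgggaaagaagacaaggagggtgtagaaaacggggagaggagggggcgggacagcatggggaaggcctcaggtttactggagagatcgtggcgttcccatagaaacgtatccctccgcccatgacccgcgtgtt
HNRNPAB: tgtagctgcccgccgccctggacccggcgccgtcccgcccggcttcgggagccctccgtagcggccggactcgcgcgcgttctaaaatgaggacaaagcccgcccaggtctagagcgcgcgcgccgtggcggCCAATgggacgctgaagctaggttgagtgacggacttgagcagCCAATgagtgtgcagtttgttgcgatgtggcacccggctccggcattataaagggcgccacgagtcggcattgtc
HNRNPF: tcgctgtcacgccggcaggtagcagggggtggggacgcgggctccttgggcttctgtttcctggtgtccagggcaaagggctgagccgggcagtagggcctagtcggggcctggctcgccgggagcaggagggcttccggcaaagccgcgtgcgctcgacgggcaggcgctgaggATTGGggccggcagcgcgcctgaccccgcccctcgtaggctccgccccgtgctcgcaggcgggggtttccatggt
HNRNPDL: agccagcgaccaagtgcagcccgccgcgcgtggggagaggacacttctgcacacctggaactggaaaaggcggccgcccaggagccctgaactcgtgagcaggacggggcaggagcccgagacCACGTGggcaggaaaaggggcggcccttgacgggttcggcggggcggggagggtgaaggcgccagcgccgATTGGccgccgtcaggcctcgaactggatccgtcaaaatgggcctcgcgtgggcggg

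The promoter set used here, drawn from RefSeq, held 46 starts for 32 of the 36 genes, up to 4 for 1 gene. SRSF2 and HNRNPA1 had none in it, nor had the pseudogenes HNRNPA1P33 and HNRNPA3P1. The 250 bases before each start were searched, and some of these windows overlap. A chromosome that holds none of these genes in GENCODE was left out for them, but not for all windows. A CCAAT box, the site of the factor NF-Y, stood in 22 of the 46 windows (47.8%), against 32% of all 35116 windows in the set. That set was not limited to the genes tested here, and no comparison with tested genes alone was made. CACGTG, the E-box bound by MYC and related factors, stood in 7 (15.2%, against 6.34%), in the windows of HNRNPA3, HNRNPD, HNRNPDL, HNRNPH3, HNRNPM and HNRNPH2. The CHR element of cell-cycle genes, TTTGAA or TTCGAA on either strand, stood in 4 (8.7%, against 14.3%), and the p53 half-site consensus in 2 (4.35%, against 5.57%). The window of SRSF7 shown above holds neither capitalized motif, and these matches of letters show no binding.

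In the lists of other splicing genes that follow, falls outnumbered rises at each time. Over all genes they did so in the main analysis (20.6, 19.1 and 21.4% fell and 16.1, 16.2 and 18.5% rose at 6, 9 and 12 h). At 9 and 12 h the excess of falls over all genes depended on the scaling. TMM gave 2552 genes that rose and 2489 that fell at 9 h, and 2977 and 2778 at 12 h. Quantile scaling also gave more rises at both times, and edgeR did so at 12 h. Of 22 SR-related genes tested, 16, 14 and 15 fell and 0, 1 and 0 rose at 6, 9 and 12 h, with a median of −0.28 at 12 h and 68.2% fallen there. TRA2B, which binds GAA-rich enhancers, fell, with log2 changes of −0.19, −0.50 and −0.68 (each ± 0.05), while SRRM1, a coactivator in the exon junction complex, was at −0.53, −0.49 and −0.49 (each ± 0.06). RNPS1, of the same complex (−0.52 ± 0.05), and PNN, a nuclear speckle protein (−0.53 ± 0.05), had also fallen at 12 h. Of 9 tested hnRNP proteins with other gene symbols, 5, 6 and 8 (88.9% at 12 h) fell and 1, 0 and 0 rose. PTBP1, which is hnRNP I and represses exons through pyrimidine tracts, fell, with log2 changes of −0.17, −0.56 and −0.72 (each ± 0.05), the 6 h call being lost without 6 h replicate 1 (−0.14, adjusted p = 0.087) and without an intensity trend (0.0704). RBMX (hnRNP G), KHSRP and SYNCRIP (hnRNP Q) stood at −0.70, −0.64 and −0.38 (each ± 0.05) at 12 h.

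Of 11 tested genes for SR protein kinases and for import receptors, 4, 4 and 6 (36.4, 36.4 and 54.5%) fell and 0, 1 and 0 rose, beside 20.6, 19.1 and 21.4% of all genes that fell. SRPK1, the kinase that readies SR proteins for import, fell at all times (−0.45, −0.42 and −0.45, each ± 0.06). TNPO3, the import receptor of SR proteins, had fallen by 12 h (−0.35 ± 0.05), as had the related receptor TNPO2 (−0.32 ± 0.05) and the speckle kinase PRPF4B (−0.28 ± 0.05). Of 27 tested genes of the U1 and U2 particles and Sm ring, 14, 19 and 21 (77.8% at 12 h) fell and 0 rose, with SF3B3, SF3A2, DHX15 and PHF5A at −0.48 ± 0.04, −0.57 ± 0.06, −0.41 ± 0.05 and −0.55 ± 0.07 at 12 h. Of 38 tested genes of the U4/U6.U5 particle and the catalytic spliceosome, 19, 24 and 24 (63.2% at 12 h) fell and 2, 0 and 1 rose. PRPF4, a U4/U6 protein, fell at each time (−0.66, −0.78 and −0.91, each ± 0.05) and had the lowest value of the list at 9 and 12 h, followed at 12 h by SNRNP40 of the U5 particle (−0.74 ± 0.06), and PRPF19 and its complex partner CDC5L stood at −0.58 ± 0.05 and −0.53 ± 0.06. SNRNP27 rose at 12 h (0.25 ± 0.07), a call lost without 12 h replicate 2 (0.17, adjusted p = 0.148) and without an intensity trend (0.0518). No difference between these lists and the SR and hnRNP genes was tested.

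**Figure D4:**
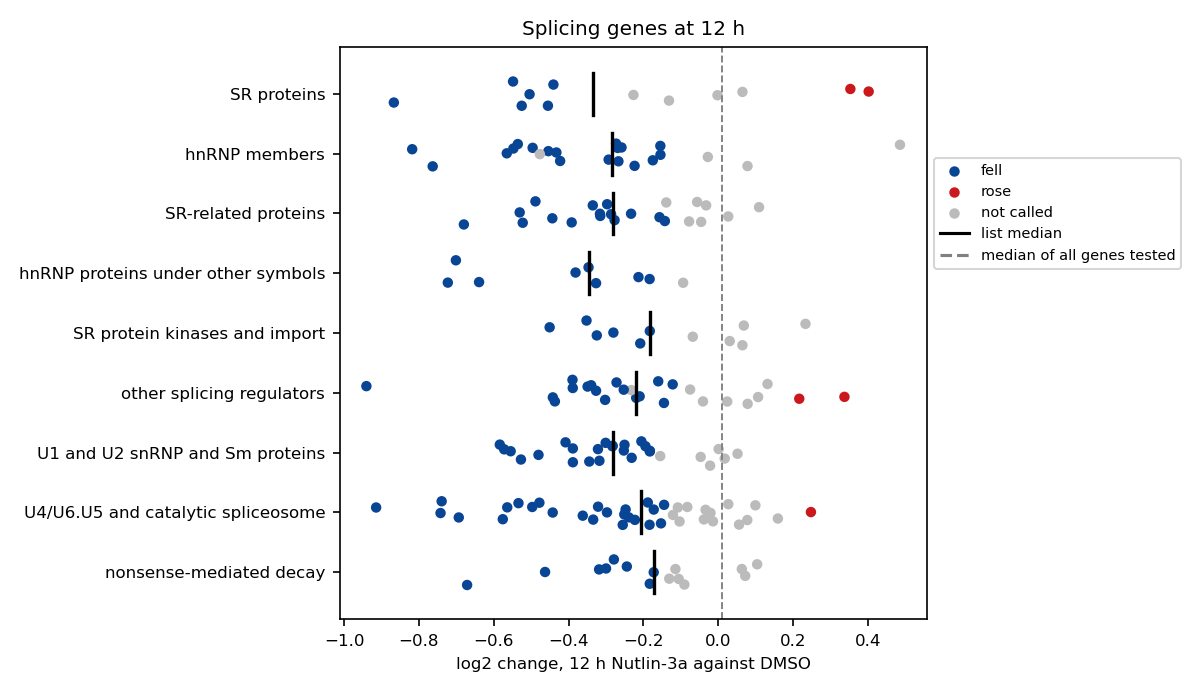
Log2 change at 12 h of Nutlin-3a against DMSO for each tested gene of the SR and hnRNP families and of 7 other splicing lists. Blue points fell, red points rose, grey points were not called, black bars are list medians and the dashed line is the median of all genes tested. All list medians lie below the dashed line, from −0.35 to −0.17.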

How the data were processed

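PolyA RNA was measured in 8 libraries. The submitters' processing notes name STAR, DESeq2 and hg19, while how reads were counted, with which strand setting and on which annotation, the sources used here do not give. The authors deposited gene counts divided by a size factor per library (a normalized signal). Whole reads were recovered from the value of 1 read, with 100% of values whole within 1e-06. Entries for reads assigned to no gene (28.2 to 29.1% of each total) were left out. The authors also deposited 3 DESeq2 tables with log2 fold changes, a Wald score, p-values and adjusted p-values, whose fold runs as DMSO over Nutlin-3a. Their sign is printed reversed.

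Values were tested as log2(normalized count + 1) with limma 3.58.1 (R 4.3.3, trended prior), all 8 libraries in 1 fit (residual degrees of freedom 4, prior 15.5), for genes with at least 10 in at least 2 libraries. Alternatives included edgeR 4.0.16 and DESeq2 1.42.0 on recovered reads. Scripts were tested on simulated data. The genes, lists and tests were chosen with earlier results of these data known, and every gene of the families was to be named, with up to 4 genes of smallest p and up to 2 against the majority from each other list. Groups of 2 cannot reach 0.05 in an exact permutation test (smallest p = 0.333). PCR copies cannot be recognized in these counts. GENCODE and RefSeq tables (GRCh38) were used by symbol for lengths, transcript types and sequences, and no coordinates were converted.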

Additional observations from a re-analysis of the deposited data

Results flagged for a closer look

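No DMSO group is known to match 6 or 12 h, so exposure cannot be told apart from time in culture here. Between 6 and 12 h of Nutlin-3a the level of 18 of the genes differed by the test of that difference itself, beside 31.5% of all genes. Those lower at 12 h than at 6 h were SRSF7 (−0.63), SRSF3 (−0.61), HNRNPF (−0.40), SRSF10 (−0.39), HNRNPAB (−0.37), HNRNPA0 (−0.36), HNRNPR (−0.34), SRSF1 (−0.29), HNRNPU (−0.23), HNRNPD (−0.23), HNRNPUL1 (−0.19), HNRNPA2B1 (−0.17), HNRNPC (−0.15), SRSF2 (−0.14) and HNRNPH3 (−0.14). Those higher were SRSF8 (0.28), SRSF11 (0.15) and HNRNPDL (0.14). Of these calls, 10 were lost under 2 to 10 of 20 alternatives, that of SRSF2 most often (−0.09 without 12 h replicate 1). No group had enough libraries for a test of single outlying values.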

How the results depend on the processing

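The numbers of SR and hnRNP genes called against DMSO, 22, 23 and 26 at 6, 9 and 12 h, stayed within 1.5 times under all 21 alternatives, and 15, 21 and 23 of these calls were made under each of them. The 18 calls between 12 and 6 h were 9 without an intensity trend, and 10 to 22 when single libraries were left out, with 10 without 12 h replicate 1 and 11 without 6 h replicate 2. The number of all genes called between these times moved in the same direction in these settings. Without an intensity trend it was 1429 higher and 1782 lower, against 2031 and 2400 in the main analysis. The cause was not tested. Leaving out single libraries gave 15 to 23, 21 to 25 and 23 to 27 calls against DMSO. No named gene changed direction where either call was made. Quantile scaling, which moved the median of all genes at 12 h to 0.05, gave 2 that rose and 23 that fell at 12 h. With a replicate block the counts were 23, 24, 27 and 18. The labels do not say that a number marks a shared culture, and deviations of same-numbered libraries correlated at −0.15 to 0.09, so the numbers were not taken as pairs. Counts near 3 reads (2.46 to 3.75 normalized) limit HNRNPH2 and HNRNPCL2, and genes with copies or read-through partners depend on counting rules that are not given here.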

Other observations

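Most tested splicing regulators outside the SR and hnRNP names had fallen by 12 h. Of 25 tested, 11, 14 and 16 (64% at 12 h) fell and 3, 1 and 2 rose at 6, 9 and 12 h, beside 20.6, 19.1 and 21.4% of all genes that fell. ELAVL1, which encodes HuR, a stabilizer of AU-rich transcripts, fell, with log2 changes of −0.20, −0.32 and −0.44 (each ± 0.05). The paraspeckle gene SFPQ was at 0.05 ± 0.04 at 6 h and −0.39 ± 0.04 at 12 h, its partner NONO at −0.35 ± 0.04, and KHDRBS1, which encodes SAM68, at −0.34 ± 0.04. The RNA helicase genes DDX5 and DDX17, which encode coregulators of splicing and of p53, went against the majority. DDX17 rose by 0.34 ± 0.04 at 12 h, and DDX5 by 0.32 ± 0.05 at 6 h and 0.22 ± 0.05 at 12 h, with −0.01 ± 0.05 at 9 h, where SRSF5 also stood near its DMSO level.

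Of 15 genes of nonsense-mediated decay and its exon junction partners, 2, 7 and 8 (13.3, 46.7 and 53.3%) fell and 2, 1 and 0 rose, so that at 6 h their share was under the 20.6% of all genes that fell. UPF3B, which links the junction complex to decay, fell, with log2 changes of −0.36, −0.64 and −0.67 (each ± 0.08). UPF1, the central helicase of the pathway, was called at 9 and 12 h (−0.23 ± 0.05 and −0.32 ± 0.05), as were SMG5 (−0.22 ± 0.05 and −0.30 ± 0.05) and EIF4A3 (−0.24 ± 0.05 and −0.28 ± 0.05).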
